A study of Mus musculus with 5 samples.

Results

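The genes described here build, fold and dispose of proteins in the endoplasmic reticulum (ER), the compartment where secreted and membrane proteins are made. They are 33 genes of the 23361 in the expression table, taken by symbol from a list of ER chaperones, disulfide enzymes, channel subunits, ER-associated degradation genes and stress sensors, and read in every library. All 33 were in the table, and 32 of them averaged at least 1 FPKM over the 5 libraries, as did 11128 genes in all. FPKM stands for fragments per kilobase of gene scaled to library size. Derl3 was the member below that level.

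The cells were C2C12, a single immortalised mouse myoblast line, harvested while proliferating in high-glucose medium with serum, and polyadenylated RNA was sequenced. Cells that held a hairpin against PKM2 for 72 h (shPKM2) were compared with cells that held a control hairpin for as long (shControl). Cells given shikonin or TEPP-46 for 8 h were compared with cells given vehicle for 8 h. PKM2 is a splice form of the glycolytic enzyme pyruvate kinase. Shikonin, a plant naphthoquinone, is used as its inhibitor, and TEPP-46 is known as its activator. The labels give neither doses nor hairpin sequences. Each condition had 1 library, so nothing below was tested, no difference has a replicate check, and "higher" and "lower" describe these libraries only. Both compounds were set against the same vehicle library, and their differences from it therefore share its errors.

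Proteins entering the ER meet the HSP70-type chaperone BiP, the lectins calnexin and calreticulin, and enzymes that form disulfide bonds. Proteins that do not fold are carried back to the cytosol and degraded by the proteasome. When unfolded proteins accumulate, the sensors IRE1, ATF6 and PERK start the unfolded protein response: IRE1 splices Xbp1 messenger RNA, ATF6 is cut by Golgi proteases, and the factors that result raise transcription of chaperone and degradation genes, many of them through a promoter sequence called the ER stress element. In muscle cells the response is known to accompany differentiation as well as stress.

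The ER stress element consists of CCAAT, then 9 bases of any kind, then CCACG. It was searched on both strands of the 300 bases around each RefSeq start site (250 before and 50 after, build GRCm38.p6). Promoters were held for 28 of the 33 members. Hyou1, Manf, Derl1, Atf6 and Sec61a1 had none, and Ero1l and Ero1lb matched under their current symbols Ero1a and Ero1b. The exact element stood in 9 of the 28 (32.1%), against 37 of all 27025 genes (0.137%) and 39 of all 32851 promoters (0.119%). It was in Hspa5, Hsp90b1, Calr, Canx, Creld2, Pdia6, Ero1lb, Syvn1 and Derl3. The element is already known from chaperone and degradation genes, so its share among the members is a description and not a separate finding. A second form, ATTGG, 1 base of any kind and CCACG, stood in Herpud1 alone among the members (3.57%), against 12 genes in all (0.0444%). TGACGTGG was in 0 of 28 members and 0.714% of all genes, and TGACGTCA in 0 of 28 and 2.03%. A match describes letters in a window and does not show that a factor binds there. The elements of the genes on which the results turn are shown with 12 bases on either side, 5′ to 3′ in the direction of the element, with its fixed letters in capitals. 
Hspa5, chr2:34772013-34772055, plus strand: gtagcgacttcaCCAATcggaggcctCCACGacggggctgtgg
Hsp90b1, upstream copy, chr10:86705626-86705668, minus strand: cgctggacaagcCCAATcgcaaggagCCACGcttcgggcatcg
Hsp90b1, copy nearer the start, chr10:86705521-86705563, plus strand: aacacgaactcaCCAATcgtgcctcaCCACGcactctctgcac
Calr, chr8:84847063-84847105, plus strand: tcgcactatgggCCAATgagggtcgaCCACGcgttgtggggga
Canx, chr11:50325788-50325830, minus strand: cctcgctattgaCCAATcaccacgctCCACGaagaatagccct
Syvn1, chr19:6046520-6046562, plus strand: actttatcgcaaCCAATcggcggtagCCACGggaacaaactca
Ero1lb, chr13:12565670-12565712, minus strand: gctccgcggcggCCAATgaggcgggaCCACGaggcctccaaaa
Herpud1, second form, chr8:94386365-94386399, plus strand: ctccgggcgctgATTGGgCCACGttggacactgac
The element ran from 65 to 47 bases before the RefSeq start of Hspa5 and from 44 to 26 bases before that of Syvn1, in the direction of each gene. In Calr, Ero1lb and the copy of Hsp90b1 nearer the start it ran against the gene. The second form in Herpud1 ran from 52 to 42 bases before the start, with the gene.

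The gene that the hairpin targets was read first. Pkm, which encodes PKM2, stood at 1041 FPKM in shPKM2 and 2061 FPKM in shControl, a difference of -0.98 in log2(FPKM + 1). It stood at 1501 FPKM with shikonin, 1198 FPKM with TEPP-46 and 1321 FPKM with vehicle. In shControl, Pkm was above vehicle by 0.64. A value per gene sums the splice forms, so the level of PKM2 itself cannot be told from it. The estimated depth ranged from 22.7 to 31.3 times 1000000 reads. Of 9 myoblast markers, 8 averaged at least 1 FPKM and none was at 0 in any library. Their summed level was 556 FPKM in shPKM2, 649 FPKM in shControl, 387 FPKM with shikonin, 567 FPKM with TEPP-46 and 621 FPKM with vehicle. Of 9 markers of other cell types, Cd68, a lysosomal gene also used as a macrophage marker, was the 1 that averaged at least 1 FPKM, and the summed level of the 9 was 13.1 FPKM in shPKM2, 4.68 FPKM in shControl, 8.34 FPKM with shikonin, 2.71 FPKM with TEPP-46 and 2.80 FPKM with vehicle. Cd68 stood at 12.9 FPKM in shPKM2 and 4.55 FPKM in shControl, a difference of 1.32. It stood at 7.89 FPKM with shikonin, 2.54 FPKM with TEPP-46 and 2.52 FPKM with vehicle, so that shikonin was above TEPP-46 by 1.33 and above vehicle by 1.34. Adipoq, Alb and Epcam were each at 0 in 4 libraries. The part of these markers in the results was not tested. In bulk RNA, fewer cells that express a gene and less of its RNA per cell cannot be told apart.

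The 33 genes together made up a larger share of the summed expression with shikonin than in any other library. They summed to 4302 FPKM in shPKM2, 4578 FPKM in shControl, 5634 FPKM with shikonin, 3793 FPKM with TEPP-46 and 3282 FPKM with vehicle. As a share of all FPKM this was 0.759% in shPKM2, 0.774% in shControl, 0.954% with shikonin, 0.663% with TEPP-46 and 0.583% with vehicle. Chaperones and lectins held most of this sum: 3439 FPKM with shikonin, 2082 FPKM with TEPP-46 and 1666 FPKM with vehicle. Degradation genes summed to 257 FPKM with shikonin, 264 FPKM with TEPP-46 and 165 FPKM with vehicle, so that here the TEPP-46 sum was the highest. Chaperones and lectins summed to 2434 FPKM in shPKM2 and 2505 FPKM in shControl, and the degradation genes to 236 FPKM in each. FPKM is per length, so levels may be set beside each other. The highest member was Hspa5 with shikonin and TEPP-46, and Calr in shPKM2, shControl and vehicle. With vehicle, Hspa5 was only the fourth, after Calr, P4hb and Hsp90b1. The 5 highest members made up 69.6% of the members' sum with shikonin and 59.3% with vehicle.

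**Figure D1:**
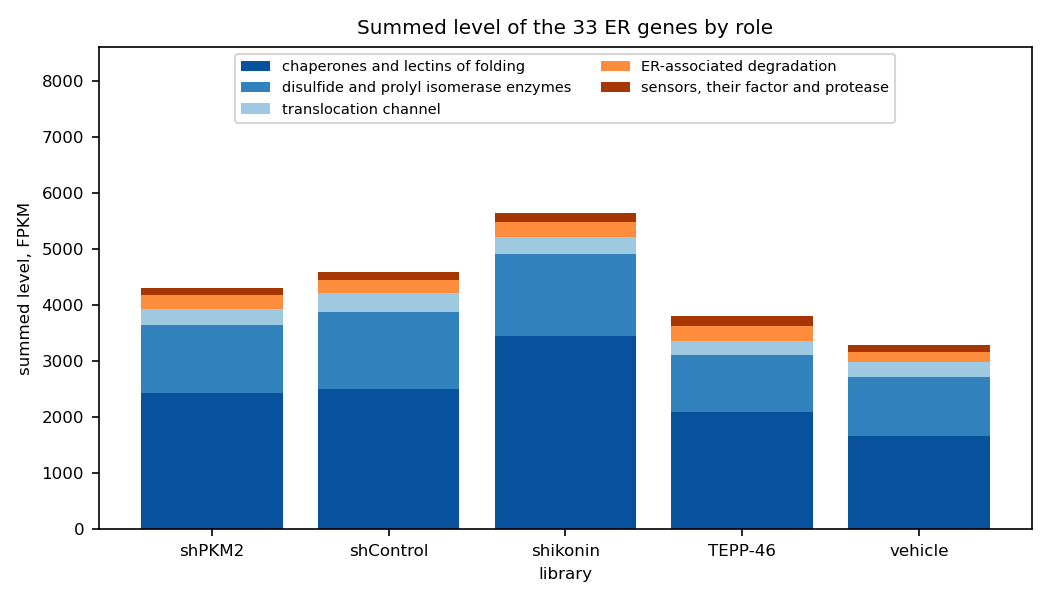
Summed level in FPKM of the 33 ER genes in each library, stacked by role, with 1 library per bar and no error bars. The shikonin bar reaches 5634 FPKM and the vehicle bar 3282 FPKM, and most of each bar is chaperones and lectins.

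Counts of members are read here against all 11128 genes averaging at least 1 FPKM. A gene counts as at least 2-fold higher or lower when its difference in log2(FPKM + 1) is at least 1 or at most -1. With shikonin, 27 of 32 members were higher than with vehicle and 5 lower, with a median difference of 0.48, while 47.6% of all genes were higher and their median was -0.03. Rescaled to TPM, which sets each library to the same sum, 25 members were higher and 7 lower, beside 4759 of all 11128 genes higher. Since 1 was added after rescaling, low genes did not shift by the same amount as others. At least 2-fold higher were Calr3, Hspa5 and Syvn1, 3 of 32, against 4.01% of all genes, and 0 members were at least 2-fold lower, against 3.5%. With TEPP-46, 20 members were higher and 12 lower than with vehicle, with a median of 0.08 beside -0.00 for all genes. Herpud1, Ero1l and Hspa5 were at least 2-fold higher, 3 of 32, against 1.23%, and 0 were at least 2-fold lower, against 0.359%.

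In shPKM2, 10 members were higher and 22 lower than in shControl, with a median of -0.06. Of all 11128 genes, 5581 were higher, with a median of 0.00. After rescaling to TPM, 16 members were higher and 16 lower, but 7182 of all genes were then higher and their median was 0.06, above the members' -0.00. None was 2-fold apart in either direction, against 0.395% of all genes higher and 0.225% lower. The control libraries also differed: 26 members were higher and 6 lower in shControl than in vehicle, with a median of 0.35 beside -0.02 for all genes. Herpud1 and Sdf2l1 were at least 2-fold higher in shControl, against 3.48% of all genes, and none was at least 2-fold lower, against 0.665%. These libraries differ in hairpin, duration and vehicle at once, which cannot be told apart. The shPKM2 library was likewise above vehicle for 23 of 32 members, with a median of 0.25, so the choice of control decides several values below. With shControl as the control of the compounds, 20 members were higher and 12 lower with shikonin (median 0.15), and 13 were higher and 19 lower with TEPP-46 (median -0.18), the opposite direction to that against vehicle.

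**Figure D2:**
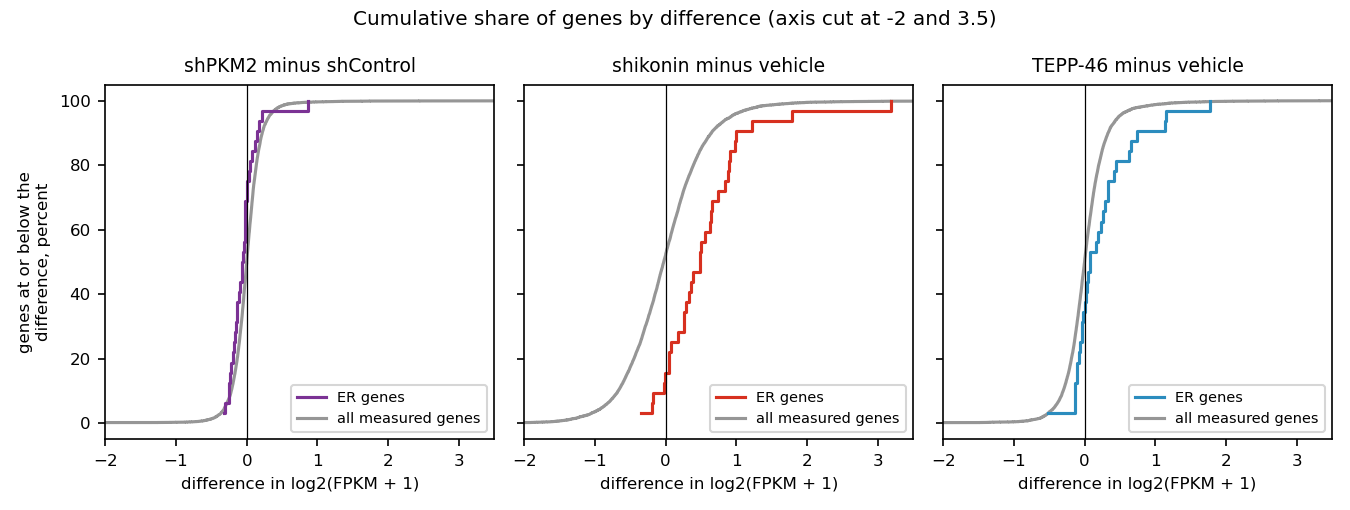
Cumulative percent of genes at or below each difference in log2(FPKM + 1), for the 32 measured ER genes (coloured steps) and all 11128 measured genes (grey), in shPKM2 minus shControl, shikonin minus vehicle and TEPP-46 minus vehicle. The ER curve lies to the right of the grey curve with shikonin (medians 0.48 and -0.03), less so with TEPP-46 (0.08 and -0.00), and close to it in shPKM2 (-0.06 and 0.00).

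Chaperones and lectins of folding were higher with shikonin than with vehicle in 9 of 9 cases (8 of 9 after rescaling to TPM), with a median of 0.62. They were also higher in shControl than in vehicle in 9 of 9 cases, with a median of 0.53. With TEPP-46, 4 were higher and 5 lower than with vehicle, with a median of -0.03, and Hspa5 was the 1 past 2-fold. In shPKM2, 3 were higher and 6 lower than in shControl, with a median of -0.02. After rescaling to TPM, 6 were higher and 3 lower, with a median of 0.04 beside 0.06 for all genes.

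Hspa5 encodes BiP, the ER member of the HSP70 family, which holds unfolded chains and restrains the sensors. It lies on chromosome 2 (34771970 to 34777547, plus strand, GRCm38). This GENCODE span begins upstream of the RefSeq start used for the promoter, so the element shown above lies inside the span. The level of Hspa5 was 530.3 FPKM in shPKM2, 552 FPKM in shControl, 1248 FPKM with shikonin, 790.4 FPKM with TEPP-46 and 360.4 FPKM with vehicle. Both compound libraries were above all others and vehicle was the lowest. Against vehicle the difference was 1.79 with shikonin (counting SE 0.00827), a ratio of 3.46, and 1.13 with TEPP-46, a ratio of 2.19. With shControl as the control these were 1.17 and 0.52, so that the TEPP-46 difference no longer reached 2-fold. Between shPKM2 and shControl it was -0.06 (0.00 after rescaling to TPM). The counting SE covers the sampling of reads only.

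Hsp90b1 encodes GRP94, the ER member of the HSP90 family, which acts after BiP on chosen clients. It stood at 497 FPKM in shPKM2, 528 FPKM in shControl, 583 FPKM with shikonin, 359 FPKM with TEPP-46 and 368 FPKM with vehicle. It was highest with shikonin, by 0.66 over vehicle, and with TEPP-46 it lay beside vehicle, at -0.03. With shControl as the control its values were 0.14 with shikonin and -0.55 with TEPP-46. Both Hspa5 and Hsp90b1 carry the ER stress element shown above. The level of Hspa5 over that of Hsp90b1 was higher with either compound than in the other libraries, at 2.14 with shikonin, 2.20 with TEPP-46 and 0.9795 with vehicle. It was 1.07 in shPKM2 and 1.05 in shControl. Hsp90b1 shares 415 exon bases with a pseudogene on the opposite strand, 1810014B01Rik, which stood at no more than 1.75 FPKM in any library. Hyou1, a large HSP70-like chaperone that exchanges the nucleotide of BiP, stood at 77.2 FPKM with shikonin, 65.8 FPKM with TEPP-46 and 52.2 FPKM with vehicle. It was higher than vehicle by 0.55 with shikonin and by 0.33 with TEPP-46.

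The lectins hold glycoproteins while they fold. Calr, the gene of soluble calreticulin, stood at 958 FPKM in shPKM2, 969 FPKM in shControl, 1115 FPKM with shikonin, 582 FPKM with TEPP-46 and 598 FPKM with vehicle. Shikonin and both hairpin libraries were high, and TEPP-46 and vehicle were low and close to each other. Canx, the gene of the membrane-bound calnexin, stood at 247 FPKM with shikonin, 157 FPKM with TEPP-46 and 160.2 FPKM with vehicle, and at 194 FPKM in shPKM2 and 193 FPKM in shControl. The differences from vehicle with shikonin were 0.90 for Calr and 0.62 for Canx, and with TEPP-46 they were -0.04 for Calr and -0.03 for Canx. With shControl as the control, Calr differed by 0.20 with shikonin and -0.73 with TEPP-46, and Canx by 0.35 and -0.30. The level of Calr over that of Canx was 4.94 in shPKM2, 5.01 in shControl, 4.51 with shikonin, 3.70 with TEPP-46 and 3.73 with vehicle.

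Calr3, a relative of calreticulin known mainly from mouse testis, varied more over the libraries than any other member with reads in all of them. It lies on chromosome 8 (72424176 to 72443870, minus strand, GRCm38). Its level was 4.70 FPKM in shPKM2, 2.12 FPKM in shControl, 19.0 FPKM with shikonin, 0.531 FPKM with TEPP-46 and 1.197 FPKM with vehicle. This corresponds to about 243 reads in shPKM2, 96.8 in shControl, 845 with shikonin, 25.6 with TEPP-46 and 73.6 with vehicle. The shikonin library was far above the others and TEPP-46 the lowest, a span of 35.7 times. The shikonin difference from vehicle was 3.19 (counting SE 0.103), the largest of any member in that comparison, and it was 2.68 with shControl as the control. With TEPP-46 it was -0.52, or -1.04 with an added value of 0.1 FPKM in place of 1, since few reads stand behind it. In shPKM2 it was 0.87, the largest of any member there, and 1.11 with that smaller added value. Its promoter window held no ER stress element.

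The genes beside Calr3 differed less. Eps15l1, on the same strand, stood at 21.9 FPKM with shikonin and 17.1 FPKM with vehicle. Cherp, a further gene of that strand, stood at 53.9 FPKM with shikonin, 38.6 FPKM with TEPP-46 and 38.5 FPKM with vehicle. The annotation gives Calr3 no exon bases in common with its neighbours.

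Sdf2l1, Manf and Creld2 encode small ER proteins that assist BiP or are secreted under stress, and all 3 are known targets of the unfolded protein response. They were highest in shControl and not with either compound. Sdf2l1 stood at 35.6 FPKM in shPKM2, 36.1 FPKM in shControl, 17.0 FPKM with shikonin, 20.9 FPKM with TEPP-46 and 16.5 FPKM with vehicle. The hairpin libraries thus held about the same level of Sdf2l1, above all 8 h libraries, and the difference of shControl from vehicle was 1.09. Shikonin minus vehicle was 0.04 for Sdf2l1, but with shControl as the control it was -1.04, past 2-fold on the low side. Manf was higher by 0.29 with shikonin and 0.02 with TEPP-46, and Creld2 by 0.26 with shikonin and -0.13 with TEPP-46. With shControl as the control, Manf and Creld2 were lower with shikonin, at -0.29 for Manf and -0.28 for Creld2. Manf shares 166 exon bases with an antisense gene.

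**Figure D3:**
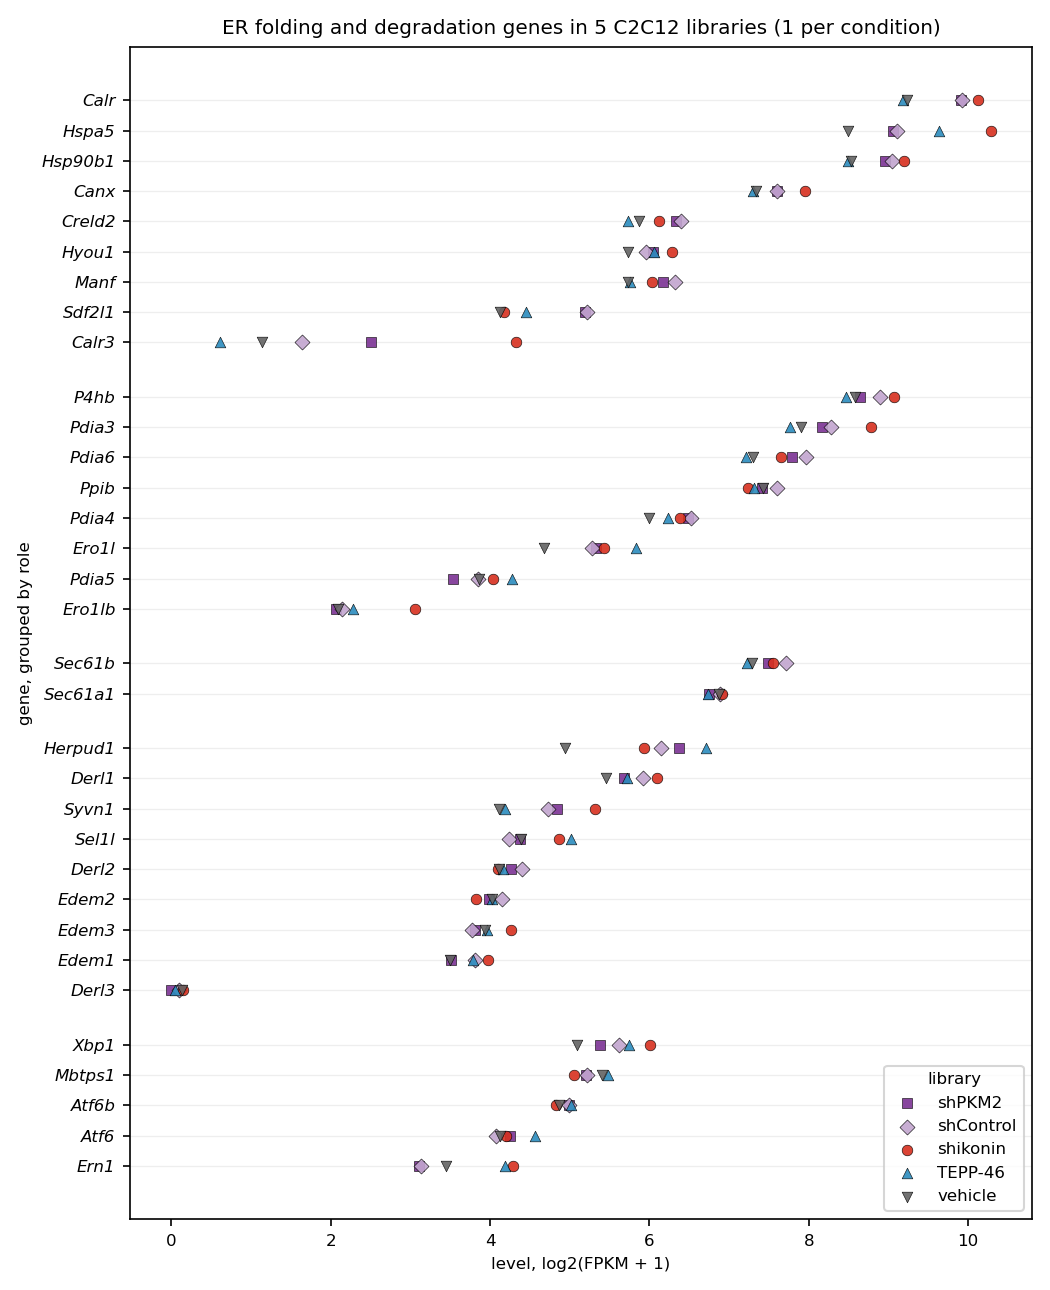
Level of each of the 33 ER genes in log2(FPKM + 1), grouped by role and ordered by mean within a role, with 1 marker per library and no error bars. The shikonin marker of Hspa5 (1248 FPKM) lies farthest right, Calr3 has the widest spread (0.531 to 19.0 FPKM), and Derl3 lies at or beside 0.

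Disulfide and prolyl isomerase enzymes were higher with shikonin in 7 of 8 cases, with a median of 0.44, and split 4 and 4 with TEPP-46, with a median of 0.06. They were also higher in shControl than in vehicle in 7 of 8 cases, with a median of 0.35. In shPKM2, 7 of 8 were lower than in shControl (6 of 8 after rescaling to TPM), with a median of -0.14.

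Pdia3, the disulfide isomerase that works with calnexin and calreticulin, stood at 287 FPKM in shPKM2, 310.5 FPKM in shControl, 439 FPKM with shikonin, 217 FPKM with TEPP-46 and 239 FPKM with vehicle. The shikonin library was the highest and TEPP-46 the lowest. Pdia3 was higher by 0.88 with shikonin than with vehicle and lower by 0.14 with TEPP-46, a difference between the compounds of 1.01 (0.97 after rescaling to TPM). P4hb, the most abundant disulfide isomerase gene here, stood at 536 FPKM with shikonin, 352 FPKM with TEPP-46 and 380.3 FPKM with vehicle, and at 397 FPKM in shPKM2 and 475 FPKM in shControl. The order was the same as for Pdia3 among the 8 h libraries. Pdia6 differed from vehicle by 0.36 with shikonin and -0.08 with TEPP-46, and Pdia4 by 0.38 with shikonin and 0.23 with TEPP-46. Both had their highest level in shControl, at 248 FPKM for Pdia6 and 91.0 FPKM for Pdia4. Pdia5 had another order: it was highest with TEPP-46, at 18.4 FPKM, beside 15.4 FPKM with shikonin and 13.6 FPKM with vehicle. In shPKM2 Pdia5 stood at 10.6 FPKM and in shControl at 13.4 FPKM, and its difference of -0.32 was the lowest of any member in that comparison.

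Ero1l and Ero1lb encode the oxidases that restore the disulfide isomerases. Ero1l stood at 39.3 FPKM in shPKM2, 37.9 FPKM in shControl, 42.0 FPKM with shikonin, 56.0 FPKM with TEPP-46 and 24.6 FPKM with vehicle. It was highest with TEPP-46 and lowest with vehicle. Its difference from vehicle was 0.75 with shikonin and 1.15 with TEPP-46 (counting SE 0.0299), and with shControl as the control the TEPP-46 value was 0.55. Ero1lb stood at 3.20 FPKM in shPKM2, 3.42 FPKM in shControl, 7.37 FPKM with shikonin, 3.86 FPKM with TEPP-46 and 3.25 FPKM with vehicle. Here the shikonin library alone was high, by 0.98 over vehicle, against 0.19 with TEPP-46. The level of Ero1l over Ero1lb was therefore 5.70 with shikonin, 14.5 with TEPP-46 and 7.58 with vehicle. In the hairpin libraries that ratio was 12.3 in shPKM2 and 11.1 in shControl. Of this pair, Ero1lb carries the ER stress element in its promoter window and Ero1l does not.

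Ppib, the ER cyclophilin and a prolyl isomerase of collagen folding, was among the members lower with shikonin: 150.1 FPKM with shikonin, 157 FPKM with TEPP-46 and 170.2 FPKM with vehicle. It shares 514 exon bases with Snx22 on the opposite strand. The use of strand in counting is not given, so reads of these genes cannot be told apart where they overlap. The level of Hspa5 over that of Ppib, a chaperone set beside a resident enzyme, was 8.31 with shikonin, 5.02 with TEPP-46 and 2.12 with vehicle. It was 3.14 in shPKM2 and 2.87 in shControl.

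The translocation channel was represented by 2 genes, and Sec61a1 varied least of all measured members. Sec61a1, the gene of the pore subunit, ran from 105 FPKM with TEPP-46 to 119.8 FPKM with shikonin, with vehicle at 116 FPKM, a span of 1.14 times over all 5 libraries. Sec61b, a small subunit, stood at 186 FPKM with shikonin, 148 FPKM with TEPP-46 and 156 FPKM with vehicle, and at 179 FPKM in shPKM2 and 209.5 FPKM in shControl. Against vehicle, Sec61a1 differed by 0.05 with shikonin (-0.02 after rescaling to TPM) and -0.14 with TEPP-46, and Sec61b by 0.25 with shikonin and -0.07 with TEPP-46. Sec61a1 shares 549 exon bases with an antisense gene, with the same limit on strand.

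Of 8 measured ER-associated degradation genes, 6 were higher with shikonin than with vehicle, with a median of 0.48, and 7 with TEPP-46, with a median of 0.17. Against the same vehicle library, 6 were also higher in shControl, with a median of 0.31. In shPKM2, 4 were higher and 4 lower than in shControl. Set between the compounds, 4 were higher with shikonin and 4 lower, from 1.13 for Syvn1 to -0.77 for Herpud1.

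Herpud1 encodes a membrane protein that gathers the retrotranslocation complex. It lies on chromosome 8 (94386438 to 94395377, plus strand, GRCm38). Its level was 81.5 FPKM in shPKM2, 70.04 FPKM in shControl, 60.1 FPKM with shikonin, 104 FPKM with TEPP-46 and 29.7 FPKM with vehicle. TEPP-46 was the highest, vehicle stood well below every other library, and shikonin lay below both hairpin libraries. Against vehicle the difference was 1.77 with TEPP-46 (counting SE 0.0385), the largest of any member there, and 0.995 with shikonin, just short of 2-fold on this scale although the FPKM ratio was 2.03. In shControl it was 1.21 above vehicle, and with shControl as the control the values were below 2-fold, at 0.56 with TEPP-46 and -0.22 with shikonin. Between the compounds, shikonin minus TEPP-46 was -0.77, the lowest of any member.

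Syvn1 encodes HRD1, the ubiquitin ligase of the same complex. Its level was 27.6 FPKM in shPKM2, 25.4 FPKM in shControl, 39.0 FPKM with shikonin, 17.2 FPKM with TEPP-46 and 16.2 FPKM with vehicle. Shikonin was the highest, and TEPP-46 lay beside vehicle. The difference from vehicle was 1.21 with shikonin (counting SE 0.04) and 0.08 with TEPP-46, and 1.13 between the compounds. With shControl as the control the shikonin value was 0.60. The level of Herpud1 over Syvn1 was thus 1.54 with shikonin, 6.005 with TEPP-46 and 1.83 with vehicle. Syvn1 shares 91 exon bases with Mrpl49 on the opposite strand, which was lower with shikonin, at 37.6 FPKM, than with vehicle, at 40.2 FPKM.

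Sel1l, the adaptor that stabilises HRD1, stood at 28.2 FPKM with shikonin, 31.4 FPKM with TEPP-46 and 19.9 FPKM with vehicle. Against vehicle it differed by 0.48 with shikonin and 0.63 with TEPP-46. In shPKM2 it was 19.8 FPKM and in shControl 17.9 FPKM. Like Herpud1 it was highest with TEPP-46, but both hairpin libraries lay below vehicle.

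The derlins form part of the exit channel. Derl1 stood at 67.4 FPKM with shikonin, 51.8 FPKM with TEPP-46 and 42.9 FPKM with vehicle, 0.64 above vehicle with shikonin and 0.27 with TEPP-46. In shPKM2 it was lower than in shControl by 0.23. Derl2 hardly differed, at 16.2 FPKM with shikonin, 16.9 FPKM with TEPP-46 and 16.3 FPKM with vehicle, and it shares 231 exon bases with Mis12 on the opposite strand. Derl3 was listed at 0 in shPKM2 and at no more than 0.104 FPKM elsewhere, which is about 1 to 4 reads per library, and no difference is given for it. It is thus the member with the element in its window and next to no reads in these cells.

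The EDEM proteins mark glycoproteins for disposal by trimming mannose. Edem1 stood at 14.7 FPKM with shikonin, 12.8 FPKM with TEPP-46 and 10.3 FPKM with vehicle, and Edem3 at 18.3 FPKM with shikonin, 14.6 FPKM with TEPP-46 and 14.3 FPKM with vehicle. Edem2 was lower with shikonin, at 13.2 FPKM beside 15.3 FPKM with TEPP-46 and 15.3 FPKM with vehicle. The differences from vehicle with shikonin were 0.48 for Edem1, 0.33 for Edem3 and -0.20 for Edem2. In shPKM2 Edem1 was at 10.4 FPKM and in shControl at 13.0 FPKM, and its difference of -0.30 was among the 3 lowest there, with Pdia5 and P4hb (-0.26).

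**Figure D4:**
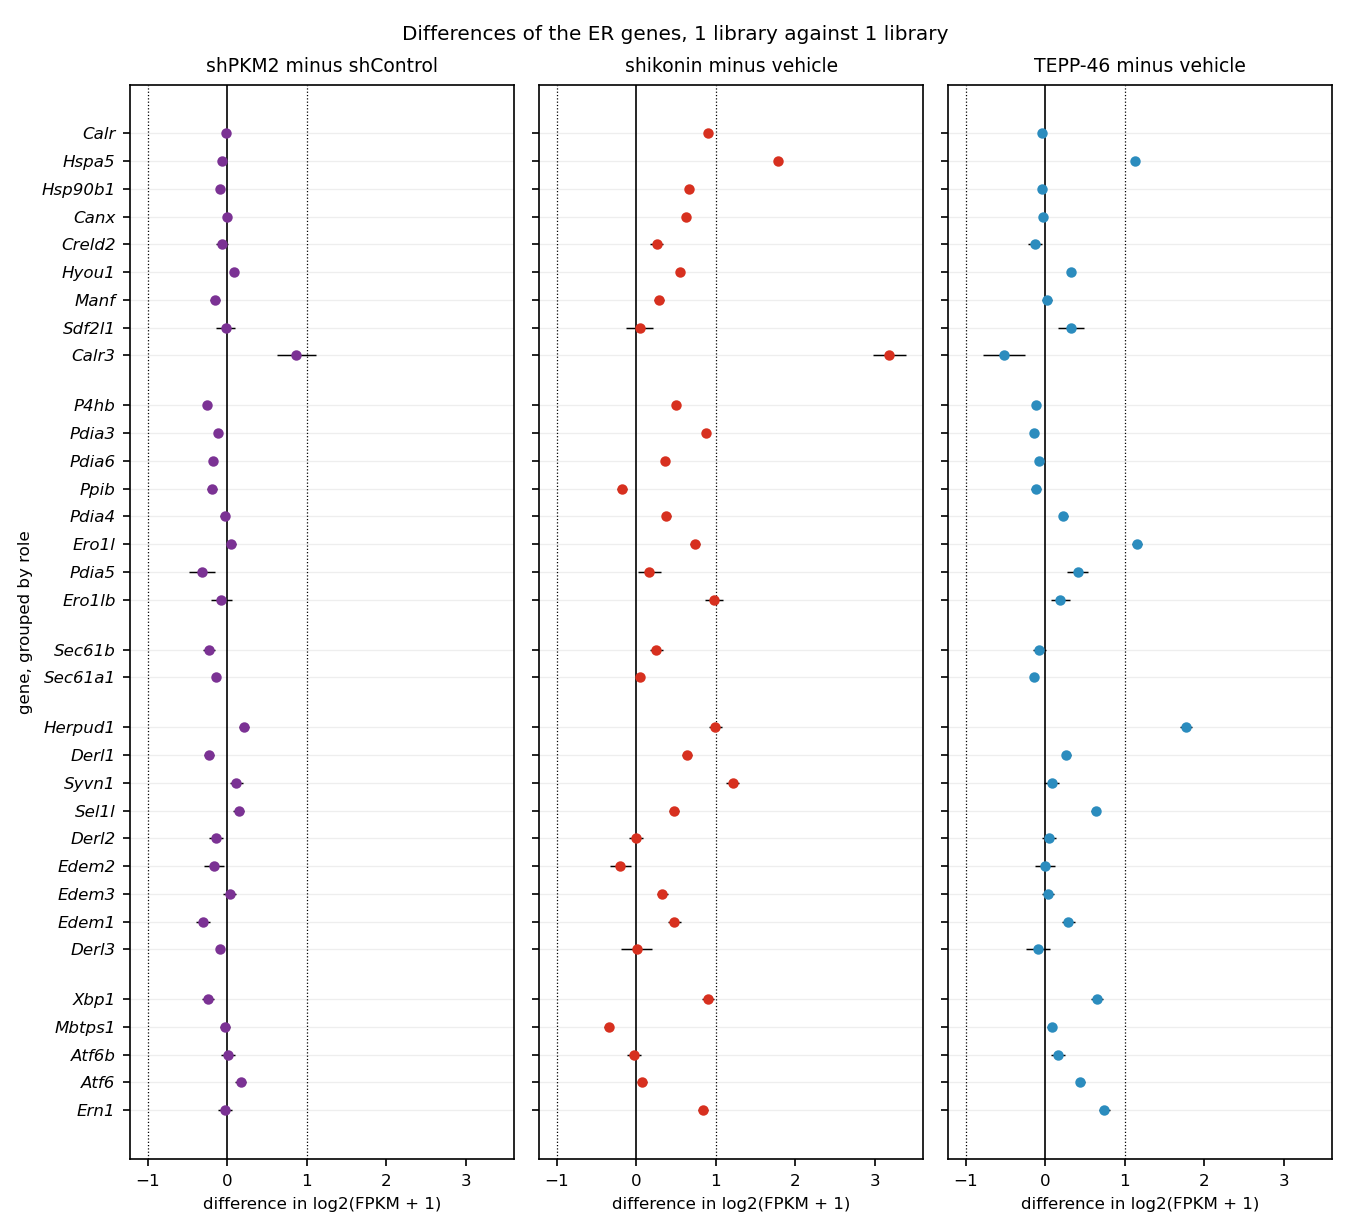
Difference in log2(FPKM + 1) of each ER gene in shPKM2 minus shControl, shikonin minus vehicle and TEPP-46 minus vehicle, each 1 library against 1. Horizontal bars show counting error (reads only), dotted lines mark 2-fold, and the points past the right one are Calr3, Hspa5 and Syvn1 with shikonin and Herpud1, Ero1l and Hspa5 with TEPP-46.

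The sensors, their factor and the protease that frees ATF6 were higher with TEPP-46 than with vehicle in 5 of 5 cases, with a median of 0.44, and in 3 of 5 with shikonin, with a median of 0.08. In shPKM2, 2 were higher and 3 lower than in shControl, with a median of -0.02. After rescaling to TPM, 4 were higher and 1 lower, with a median of 0.04 beside 0.06 for all genes. None reached 2-fold against its own control.

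Ern1, the gene of the sensor IRE1, stood at 7.63 FPKM in shPKM2, 7.79 FPKM in shControl, 18.5 FPKM with shikonin, 17.2 FPKM with TEPP-46 and 9.89 FPKM with vehicle. Both compound libraries were high and both hairpin libraries low. It was higher than vehicle by 0.84 with shikonin and by 0.74 with TEPP-46, and past 2-fold with shControl as the control, at 1.15 with shikonin and 1.05 with TEPP-46. Ern1 was 1 of the 6 members lower in shControl than in vehicle, by 0.31, the lowest value of that comparison. Atf6, the gene of a sensor that is itself a transcription factor, stood at 17.4 FPKM with shikonin, 22.7 FPKM with TEPP-46 and 16.5 FPKM with vehicle, and at 18.0 FPKM in shPKM2 and 15.8 FPKM in shControl. TEPP-46 was the highest, by 0.44 over vehicle. The level of Ern1 over that of Atf6 was 1.06 with shikonin, 0.758 with TEPP-46 and 0.601 with vehicle. It was 0.424 in shPKM2 and 0.492 in shControl.

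Xbp1 encodes the factor that IRE1 activates by splicing. It stood at 40.6 FPKM in shPKM2, 48.3 FPKM in shControl, 63.1 FPKM with shikonin, 52.7 FPKM with TEPP-46 and 33.2 FPKM with vehicle. Shikonin was the highest and vehicle the lowest, with differences from vehicle of 0.91 with shikonin and 0.65 with TEPP-46. With shControl as the control these were 0.38 and 0.12. A value per gene sums the spliced and unspliced forms and does not tell them apart. Atf6b, a weaker relative of Atf6, ranged from 27.5 FPKM with shikonin to 31.4 FPKM with TEPP-46, a span of 1.14 times over the 5 libraries. Mbtps1, the site-1 protease, stood at 32.2 FPKM with shikonin, 43.7 FPKM with TEPP-46 and 41.3 FPKM with vehicle. Its shikonin difference of -0.35 was the lowest of any member in that comparison.

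Shikonin and TEPP-46 are unrelated in structure and their doses are not in the labels, so the comparison of the compounds is of these 2 libraries only. With shikonin, 21 of 32 members were higher than with TEPP-46 and 11 lower, with a median of 0.24 beside -0.04 for all genes. Calr3 (3.71), Syvn1 and Pdia3 were at least 2-fold higher, against 3.64% of all genes, and 0 were at least 2-fold lower, against 3.64%. Calr, at 0.94, and Ero1lb, at 0.78, were the next. The lowest were Herpud1 (-0.77), Mbtps1 (-0.43) and Ero1l (-0.41). Among the 8 h libraries, shikonin held the highest level of 21 members, TEPP-46 of 9 and vehicle of 2. Over all 5 libraries shikonin held the highest level of 16 members, shControl of 9 and TEPP-46 of 7.

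Members that carry the exact ER stress element and were measured, 8 in number, were higher with shikonin than with vehicle in 8 of 8 cases, from 0.26 to 1.79, with a median of 0.78. The 19 measured members whose window lacked it were higher in 14 cases, with a median of 0.38. The shControl library showed a like split against vehicle: 8 of the 8 were higher (median 0.57), and 14 of the 19 (median 0.32). With TEPP-46, 3 of the 8 were higher, with a median of -0.03, and 13 of the 19, with a median of 0.16. Set between the compounds, 8 of 8 members with the element were higher in the shikonin library (median 0.68), and 9 of 19 without it (median -0.05). The first of these groups is mostly abundant chaperone and lectin genes, so role and element cannot be told apart in it. With 1 mismatch allowed, the element was found in 14 of 28 members and in 1.72% of all genes. This added Pdia3, Pdia4, Herpud1, Sel1l and Derl2, which are among the 19 without the exact element. Herpud1 also carries the second form. The differences were not read again for the larger set.

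Other genes of the same compartment and of neighbouring stress pathways were read from further lists, chosen with earlier results of these data known. Among 24 measured ER co-chaperones and folding factors, 10 were higher and 14 lower with shikonin than with vehicle (median -0.09). Dnajb9, the gene of a J-domain partner of BiP that also restrains IRE1, was the 1 at least 2-fold higher, against 4.01% of all genes. It stood at 57.1 FPKM with shikonin, 27.6 FPKM with TEPP-46 and 13.6 FPKM with vehicle, and at 27.8 FPKM in shPKM2 and 26.3 FPKM in shControl. Its differences from vehicle were 2.00 with shikonin and 0.98 with TEPP-46. Ppic (-0.87) and Erp29 (-0.83), which encode a cyclophilin and a disulfide isomerase relative, were the lowest of that list with shikonin. The 18 genes of N-glycan addition and trimming had medians of -0.11 with shikonin and 0.01 with TEPP-46. The 18 of the translocon and signal peptide processing had medians of 0.08 with shikonin and -0.04 with TEPP-46. The 10 measured genes of other ER stress sensors and transducers had medians of 0.28 with shikonin and 0.10 with TEPP-46. No gene of these 3 lists was past 2-fold against vehicle with either compound. Of all genes, 4.01% were that much higher and 3.5% lower with shikonin, and 1.23% and 0.359% with TEPP-46. In shPKM2 the list medians were -0.02 for the N-glycan genes, -0.11 for the translocon and -0.11 for the sensors, and -0.14 for the co-chaperones.

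Further degradation genes had a median of 0.14 with shikonin and 0.05 with TEPP-46 over 22 genes. Nploc4 and Ubxn4, cofactors of the segregase p97, and Selk, a selenoprotein of the complex, were at least 2-fold higher with shikonin. The differences were 1.28 for Nploc4, 1.22 for Ubxn4 and 1.05 for Selk. Of all genes, 4.01% were at least 2-fold higher with shikonin. Vcp, the gene of p97, stood at 642 FPKM with shikonin, 276 FPKM with TEPP-46 and 326 FPKM with vehicle, a difference of 0.97 with shikonin and -0.24 with TEPP-46. These genes act in the cytosol or on its face of the membrane. The 23 genes of ER-to-Golgi transport were higher with shikonin in 20 cases (median 0.37), against 47.6% of all genes. The coat genes Sec23a (0.98) and Sec24d (0.90) led them. With TEPP-46, 17 of the 23 were lower (median -0.06), against 50.2% of all genes. In shControl, 18 were higher than in vehicle (median 0.13), and in shPKM2, 16 were lower than in shControl (median -0.05).

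Genes listed for the PERK arm, which runs through ATF4 and CHOP, were higher with both compounds. The activity of PERK was not tested. With shikonin, 15 of 15 genes were higher than with vehicle and 9 at least 2-fold (median 1.37), against 4.01% of all genes. With TEPP-46 it was 15 of 15 and 12 (median 1.72), against 1.23%. Ddit3, the gene of CHOP, stood at 195 FPKM with shikonin, 243 FPKM with TEPP-46 and 28.0 FPKM with vehicle. Atf4 stood at 407 FPKM with shikonin, 737 FPKM with TEPP-46 and 239 FPKM with vehicle, while Eif2ak3, the gene of PERK itself, stood at 7.99 FPKM with shikonin, 5.76 FPKM with TEPP-46 and 5.74 FPKM with vehicle. Herpud1 is a known target of ATF4 as well as of ATF6, and Ero1l of CHOP. In shPKM2 the median of the 15 listed genes was -0.04. In shControl, 5 of them were at least 2-fold higher than in vehicle (median 0.57), against 3.48% of all genes. Heat shock genes outside the ER were read too, most of them of cytosolic chaperones, with the mitochondrial chaperonin genes Hspd1 and Hspe1 among them. Of these 15 genes, 15 were higher with shikonin than with vehicle (median 1.72), 11 of them at least 2-fold, against 4.01% of all genes. With TEPP-46, 13 of the 15 were lower than with vehicle (median -0.20), against 50.2% of all genes. In shControl, 10 of the 15 were also lower than in vehicle (median -0.11), against 52.9% of all genes. In shPKM2, 13 were higher than in shControl (median 0.07), against 50.2% of all genes. Hspd1 (0.41) and Hspe1 (0.78) were not past 2-fold with shikonin. Hspa8, the constitutive cytosolic relative of Hspa5, stood at 4645 FPKM with shikonin, 1213 FPKM with TEPP-46 and 2133 FPKM with vehicle.

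**Figure D5:**
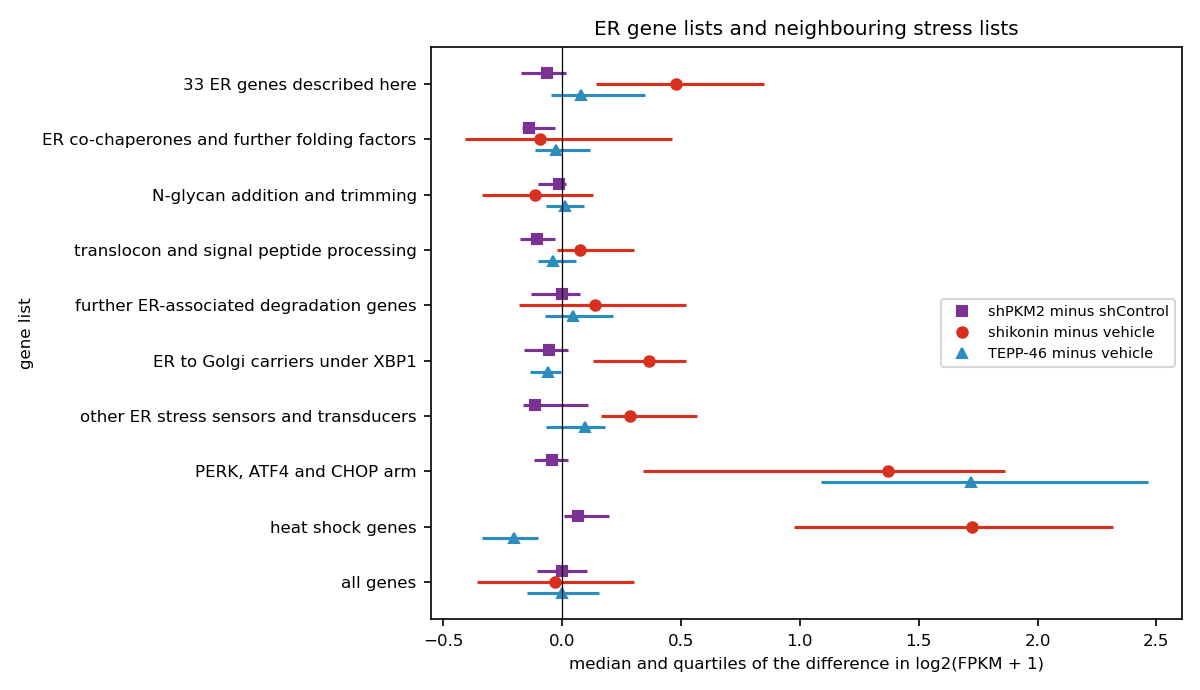
Median (marker) and quartiles (line) of the difference in log2(FPKM + 1) for the 33 ER genes, 8 further lists and all genes, in shPKM2 minus shControl, shikonin minus vehicle and TEPP-46 minus vehicle. Quartiles span genes, not replicates. Genes listed for the PERK arm lie to the right with both compounds (medians 1.37 with shikonin and 1.72 with TEPP-46). The heat shock genes have a median of 1.72 with shikonin and -0.20 with TEPP-46.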

How the data were processed

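The authors deposited 1 table of FPKM values with 1 column per library. Per the submitters' processing notes, Trim Galore 0.6.0, cutadapt, FastQC and DESeq2 1.26.0 were used with build GRCm38. No source used here names the aligner, the counting program, the annotation or the strand setting. The shControl column's name ends in 30, which the labels do not explain. Values were compared as log2(FPKM + 1), 1 library minus another, for genes averaging at least 1 FPKM. FPKM are not counts, so no count model was fitted.

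Depth (22.7 to 31.3 times 1000000 reads) was estimated from the steps of low values and GENCODE M21 lengths of 347 genes with 1 transcript (quartiles 29.3 and 32.5 times 1000000 for vehicle). Median-of-ratios factors of 0.998 to 1.00 leave the library size behind FPKM uncertain, so depths are relative to it. Counting SE comes from the estimated reads and covers counting error only. It was tested on reads simulated with counting error alone, at known depths and gene lengths. That could not check the depths, lengths or other variation of the real data. Coordinates are GENCODE M21 and promoter sequences RefSeq, both on GRCm38. Protein features were not analysed here.

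The members and lists were chosen with earlier results of these data known. Named in full were the 3 highest and 3 lowest members per comparison, those past 2-fold, sensors, paralogues and members below 1 FPKM on average, and of other lists up to 4 genes per comparison by size of difference, plus Pkm and up to 5 genes most like Hspa5. Atf4, Eif2ak3 and some further values of named genes were added after their values were seen. Alternatives were the added value, the filter, TPM, median-of-ratios factors, the other control and 1 mismatch in the element. Python 3.11.15 and pandas 2.3.3 were used.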

Additional observations from a re-analysis of the deposited data

How the results depend on the processing

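The choice of control turned the direction of 2 comparisons. Against shControl, 13 members were higher and 19 lower with TEPP-46, and against vehicle, 23 were higher and 9 lower in shPKM2. Rescaling by median-of-ratios factors or removing the filter changed no count of members past 2-fold and turned the sign of no median of the members, though the split in shPKM2 became 9 higher and 23 lower with those factors. No replicate could be left out, since each condition had 1 library. No paired analysis was possible because no condition had a second library to pair. With vehicle as the control, shPKM2 had 3 members at least 2-fold higher and a median of 0.25. An added value of 0.1 and rescaling to TPM each gave it 1 such member, Calr3. With shikonin, an added value of 0.1 gave 5 members at least 2-fold higher, Ero1lb and Herpud1 joining, and an added value of 5 gave a median of 0.39. With shControl as its control, shikonin had 1 member at least 2-fold lower, Sdf2l1, and a median of 0.15. With TEPP-46, an added value of 0.1 gave 1 member at least 2-fold lower, Calr3. With shControl as its control, TEPP-46 had 1 member at least 2-fold higher, Ern1, 1 at least 2-fold lower, Calr3, and a median of -0.18. An added value of 5 left shControl 1 member at least 2-fold above vehicle, Herpud1. With 1 mismatch allowed, 14 promoters held the ER stress element. The median of all genes moved to 0.06 for shPKM2 and to -0.09 for shikonin after rescaling to TPM. Depth limits Calr3, with about 25.6 reads in TEPP-46, and Derl3.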

Other observations

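The genes whose 3 differences (shPKM2 minus shControl, shikonin minus vehicle, TEPP-46 minus vehicle) lay nearest to those of Hspa5, by summed absolute distance over all 11128 measured genes, were Slc3a2, Plk3, 5430416N02Rik, Cry2 and Ifi202b. Slc3a2, which encodes the heavy chain of amino acid transporters, was nearest at 0.384. It stood at 154 FPKM in shPKM2, 135 FPKM in shControl, 475 FPKM with shikonin, 290 FPKM with TEPP-46 and 128 FPKM with vehicle. Plk3, a stress-responsive kinase gene, followed at 0.399, and Cry2, a circadian repressor gene, at 0.411. None of these is an ER chaperone gene, and the likeness rests on 3 differences, 2 of which share the vehicle library. Ifi202b was like Hspa5 only in those differences: it stood at 116 FPKM in shPKM2 and 115 FPKM in shControl, against 54.5 FPKM with shikonin, 44.3 FPKM with TEPP-46 and 18.3 FPKM with vehicle.

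Transcripts that active IRE1 is known to cut in mouse cells were also read. Of 5 measured, 4 were lower with shikonin (median -0.29) and 5 with TEPP-46 (median -0.08), and 4 were lower in shPKM2 than in shControl (median -0.36). Of all genes, 52.2% were lower with shikonin, 50.2% with TEPP-46 and 49.7% in shPKM2. In shControl, 4 of the 5 were higher than in vehicle (median 0.29), against 46.9% of all genes. Bloc1s1, the best known of these transcripts, stood at 78.3 FPKM in shPKM2, 101 FPKM in shControl, 69.6 FPKM with shikonin, 79.9 FPKM with TEPP-46 and 89.2 FPKM with vehicle. Its shPKM2 difference of -0.36 was about the size of its shikonin difference, -0.35. Hgsnat was higher with shikonin, at 76.8 FPKM against 25.3 FPKM with vehicle, a difference of 1.56. It was the 1 at least 2-fold higher there, against 4.01% of all genes. The activity of IRE1 was not tested.

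Myoblast markers were lower with shikonin, where most ER genes were higher. Of 8 measured, 8 were below vehicle (median -0.77), against 52.2% of all genes. Myf5 (-1.32) and Myod1 (-1.25) were at least 2-fold lower, against 3.5% of all genes. With TEPP-46, 6 of 8 were lower (median -0.14), against 50.2% of all genes. Myf5 was higher by 1.07, past 2-fold, against 1.23%. In shControl, 4 of the 8 were higher than in vehicle and 4 lower (median -0.01). Myf5 stood at 32.1 FPKM in shControl, 23.7 FPKM with TEPP-46 and 10.7 FPKM with vehicle, so its TEPP-46 direction depends on the control. The part of these markers in the values of the ER genes was not tested.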
